A study of Homo sapiens with 6 samples.

Results

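Nucleotide excision repair removes bulky lesions such as ultraviolet photoproducts from DNA. In the genome-wide branch the DDB1-DDB2 complex and XPC with RAD23B find the lesion. TFIIH, whose helicases are ERCC2 and ERCC3, then opens the DNA with XPA, and the nucleases ERCC4 and ERCC5 cut on either side. p53 is a transcription factor that DNA damage activates, and DDB2 and XPC are textbook p53 target genes. Described here are 9 genes of this pathway, chosen by their symbols, of 55882 rows in the count table. They comprise 4 recognition genes, DDB1, DDB2, XPC and RAD23B, and 5 verification and incision genes, XPA, ERCC2, ERCC3, ERCC4 and ERCC5. All 9 passed the filter on low counts.

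Polyadenylated RNA was sequenced from DIvA cells, a subline of the osteosarcoma line U2OS. DIvA cells carry the nuclease AsiSI as a fusion that responds to 4-hydroxytamoxifen (4-OHT): adding the drug moves the fusion into the nucleus, where it breaks DNA at its recognition sites. There were 3 libraries of genotype p53 WT and 3 of genotype p53 KO, and all 6 came from cells given 300 nM 4-OHT for 5 h. Both groups thus carried the induced enzyme, and untreated cells were not analysed here. AsiSI makes double-strand breaks, which are not the lesions that nucleotide excision repair removes. The labels name neither the number of knockout clones nor separate cultures, so p-values measure the spread between these libraries, which may be technical.

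Total counts ranged from 20393909 to 79767519, and replicate 3 was the shallowest in both groups. CDKN1A, which encodes the cell cycle inhibitor p21 and is a standard readout of p53, stood at 521 to 572 CPM (counts scaled to library size, with TMM factors that correct for composition) in p53 WT libraries and at 41.8 to 49.1 CPM in p53 KO libraries. Of 8 mesenchymal markers COL1A2 and NT5E stayed at means of at most 1.46 CPM, and the summed level was 5704 to 6327 CPM in p53 WT and 3745 to 4192 CPM in p53 KO. Within that sum VIM, the filament protein vimentin, had 3333 ± 349 and 1618 ± 74.5 CPM, while COL1A1, a collagen chain, had 688 ± 10.8 and 930 ± 82.8 CPM (SD, n = 3). As with VIM, every p53 KO library lay below every p53 WT library for SPARC, RUNX2, CD44 and THY1. The 4 epithelial markers summed to 7.85 to 11.4 CPM in p53 WT and 14.1 to 21.7 CPM in p53 KO. The leukocyte markers summed to at most 2.25 CPM, with LYZ at 0 counts in every library.

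The start sites of DDB2 and XPC are shown because these are the members whose transcripts changed. The sequences are RefSeq's (GRCh38.p14), which held 12 start-site windows for the 9 members. Each printed stretch runs from 250 bases before a start to 30 bases after it. Capitals mark the closest match to the p53 consensus element, a pair of decamers up to 13 bases apart. The decamer reads alike on both strands, and a pair could differ from it at up to 16 positions, with C and G required at the centre of each decamer. The DDB2 start shown lies at chr11:47214724-47215003 on the plus strand, and the XPC start at chr3:14178572-14178851 on the minus strand.
DDB2: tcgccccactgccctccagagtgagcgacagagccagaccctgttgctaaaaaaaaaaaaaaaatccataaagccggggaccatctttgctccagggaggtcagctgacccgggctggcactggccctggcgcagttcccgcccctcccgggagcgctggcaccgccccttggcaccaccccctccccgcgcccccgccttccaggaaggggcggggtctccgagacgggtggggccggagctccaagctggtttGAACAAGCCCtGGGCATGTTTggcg
XPC: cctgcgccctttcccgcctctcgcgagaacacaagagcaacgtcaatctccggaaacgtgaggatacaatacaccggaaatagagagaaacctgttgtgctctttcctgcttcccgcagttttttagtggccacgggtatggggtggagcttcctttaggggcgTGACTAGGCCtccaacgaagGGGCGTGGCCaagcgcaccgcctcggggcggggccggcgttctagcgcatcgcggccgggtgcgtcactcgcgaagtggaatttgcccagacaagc

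In DDB2 the pair lies at bases 6 to 26 of the transcript, with a spacer of 1 base and 0 mismatches. Windows of 300 bases around all 35116 RefSeq starts gave 10 with such a pair, or 0.0285%. The other DDB2 start had a best pair with 5 mismatches, a match that 66.4% of all windows reach. The XPC pair lies at bases -86 to -57 and has 4 mismatches, a match that 35.4% of all windows reach. Among the other members the best pair had 3 mismatches in ERCC4, 4 in XPA and RAD23B, 5 in DDB1, ERCC2 and ERCC5 and 6 in ERCC3, where 12.8% of all windows reach 3. For the recognition partners of DDB2 and XPC the closest pairs were as follows, with the spacer in lower case.
DDB1: GCTCTGGCCTgCAACGTGTCT
RAD23B: GGGCACGTCTCGGCGAGTCA
Such a match describes letters and says nothing of binding, and a window without one says nothing of the factor.

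Of the 9 members, DDB2 and XPC were lower in p53 KO and 0 were higher at an adjusted p under 0.05 by edgeR. This is 2 of the 4 recognition genes and 0 of the 5 verification and incision genes. Over all 22352 genes tested, 26.5% passed, 14.4% as lower and 12.1% as higher. The median log2 fold change (p53 KO over p53 WT) was -0.70 in the recognition genes, -0.18 in the verification and incision genes and 0.01 over all tested genes. No recognition gene lay near -0.70, the midpoint between XPC at -1.52 and RAD23B at 0.12, and DDB1 had 0.19. At an unadjusted p under 0.05 ERCC4 was also lower, which makes 3 members lower and 0 higher, beside 18.9% of all tested genes as lower and 17.2% as higher. In 4 members every library of one group lay above every library of the other, DDB2, XPC and ERCC5 as lower and RAD23B as higher. Such a separation was seen for 40.8% of all tested genes, 21.4% as lower and 19.4% as higher. Bulk RNA cannot tell fewer cells with a transcript from less transcript per cell.

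DDB2, the lesion-binding subunit that is mutated in xeroderma pigmentosum group E, was read at 92.7, 87.7 and 84.6 CPM in p53 WT replicates 1, 2 and 3. In p53 KO it was read at 15.8, 16.4 and 14.6 CPM. All p53 KO libraries lay far below all p53 WT libraries, and the spread within each group was small. The means were 88.3 ± 4.08 and 15.6 ± 0.912 CPM (SD, n = 3), so that 17.6% of the p53 WT level remained. The log2 fold change was -2.50 (SE 0.112, 95% interval -2.74 to -2.26, adjusted p = 9.41e-09 by edgeR's quasi-likelihood test).

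XPC, which detects the distorted helix and recruits TFIIH, was read at 76.2, 79.2 and 83.7 CPM in p53 WT and at 28.4, 27.0 and 27.7 CPM in p53 KO. These groups were also far apart, and 34.7% of the p53 WT mean remained. The means were 79.7 ± 3.78 and 27.7 ± 0.747 CPM (SD, n = 3), and the log2 fold change was -1.52 (SE 0.106, 95% interval -1.75 to -1.30, adjusted p = 2.36e-07 by edgeR). The intervals of DDB2 and XPC did not overlap.

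DDB1, the adaptor that joins DDB2 to the CUL4 ubiquitin ligase and serves many other substrate receptors, had 368, 375 and 408 CPM in p53 WT. The p53 KO libraries had 407, 443 and 467 CPM. The groups overlapped, since the lowest p53 KO library lay just under the highest p53 WT library. The log2 fold change of DDB1 was 0.19 (95% interval -0.0027 to 0.39, adjusted p = 0.144 by edgeR). RAD23B, which stabilises XPC, had 165, 180 and 182 CPM in p53 WT and 196, 185 and 191 CPM in p53 KO. Its groups did not overlap, and its log2 fold change was 0.12 (95% interval -0.07 to 0.31, adjusted p = 0.381 by edgeR).

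**Figure D1:**
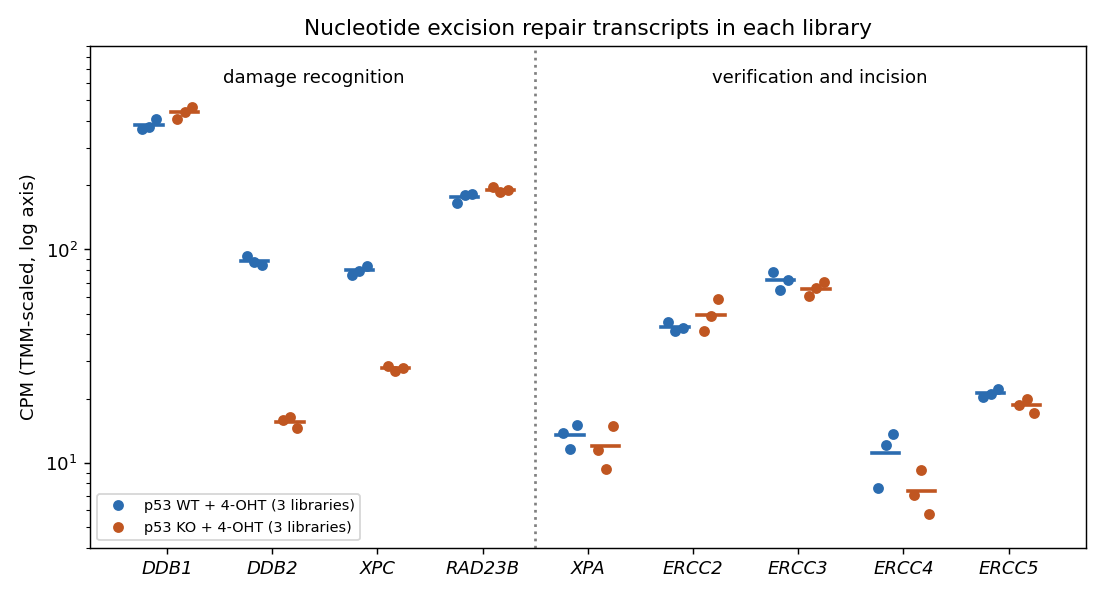
CPM (TMM-scaled, log axis) of the 9 members in each of the 6 libraries, with points for libraries and a bar for each group's mean. DDB2 falls from about 88.3 to 15.6 CPM and XPC from 79.7 to 27.7 CPM, while the groups of the other members lie close together or overlap.

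Among the verification genes, XPA, the scaffold that checks the lesion, had 13.8, 11.6 and 15 CPM in p53 WT and 11.5, 9.40 and 14.9 CPM in p53 KO. Of the p53 KO libraries 2 lay below every p53 WT library and 1 lay within their range, and the log2 fold change was -0.18 (95% interval -0.60 to 0.23, adjusted p = 0.553 by edgeR). ERCC2, the XPD helicase, had 45.7, 41.7 and 42.7 CPM in p53 WT and 41.4, 48.6 and 58.3 CPM in p53 KO, with p53 KO replicate 3 above the others. Its log2 fold change was 0.19 (95% interval -0.09 to 0.46, adjusted p = 0.342 by edgeR). ERCC3, the XPB translocase, had 78.2, 64.4 and 72.2 CPM against 60.5, 66.0 and 70.1 CPM, again with overlap. For ERCC3 the log2 fold change was -0.13 (95% interval -0.37 to 0.11, adjusted p = 0.448 by edgeR).

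The nucleases had the fewest reads per length, with ERCC5 read from its own row alone. ERCC4, or XPF, which cuts 5′ of the lesion together with ERCC1, had 7.63, 12.1 and 13.7 CPM in p53 WT and 7.04, 9.21 and 5.76 CPM in p53 KO. The groups overlapped because p53 WT replicate 1 lay below p53 KO replicate 2. The log2 fold change of ERCC4 was -0.59 (95% interval -1.11 to -0.07, adjusted p = 0.0922 by edgeR), the widest interval of the 9, from 115 to 816 counts per library. Without p53 WT replicate 1 it was -0.82 (adjusted p = 0.0205 by edgeR). Without p53 KO replicate 2 it was -0.79 (adjusted p = 0.0386 by edgeR), so leaving out 1 library could change its call. With all 6 libraries and no filter it was -0.60 (adjusted p = 0.0303 by edgeR). ERCC5, or XPG, which cuts 3′ of the lesion, had 20.3, 20.9 and 22.2 CPM in p53 WT and 18.7, 19.9 and 17.1 CPM in p53 KO. The ERCC5 groups did not overlap, but the log2 fold change of -0.18 (95% interval -0.47 to 0.11) gave adjusted p = 0.378 by edgeR.

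The table also holds a row for BIVM-ERCC5, a readthrough transcript that contains ERCC5 exons. Its counts were 93.5% to 106% of those of ERCC5 in every library, so how reads of shared exons were assigned to the rows is uncertain. The log2 fold change of BIVM-ERCC5 was -0.11 (adjusted p = 0.653 by edgeR), and the sum of both rows had -0.14 (adjusted p = 0.419 by edgeR).

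Levels of different genes were compared per kilobase of exon (RPKM, with GENCODE 29 exon lengths, an annotation other than the authors'). In p53 WT the order was DDB1 at 85.2 ± 4.76, DDB2 at 47.2 ± 2.18, RAD23B at 41.3 ± 2.13, ERCC3 at 25.3 ± 2.46 and XPC at 20.8 ± 0.986 RPKM (SD, n = 3). Below these came ERCC2 at 9.79 ± 0.477, XPA at 9.50 ± 1.25, ERCC5 at 2.65 ± 0.121 and ERCC4 at 1.45 ± 0.410 RPKM. The ERCC5 level rests on its own row, without BIVM-ERCC5, and the assignment of their shared reads is uncertain. Only ERCC2 and XPA overlapped with their neighbour in this order. In p53 KO, DDB2 at 8.33 ± 0.488 and XPC at 7.23 ± 0.195 RPKM lay in the range of XPA, which was 6.63 to 10.5 RPKM across libraries. DDB1 at 97.4 ± 6.62 and RAD23B at 44.8 ± 1.26 RPKM then led the order.

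Within the recognition complexes, the transcript level of 1 subunit relative to its partner differed between the groups. Per kilobase, DDB2 amounted to 60.7%, 56.4% and 50% of DDB1 in p53 WT replicates 1, 2 and 3 and to 9.32%, 8.91% and 7.53% in p53 KO. XPC amounted to 51.2%, 49.0% and 51.1% of RAD23B in p53 WT and to 16.1% in each p53 KO library. Both ratios were lower in every p53 KO library than in any p53 WT library, as DDB2 and XPC already were by themselves. For the helicases of TFIIH, ERCC2 was 37.3% to 41.3% of ERCC3 in p53 WT and 43.7% to 53.1% in p53 KO, also without overlap but the other way. Neither ERCC2 nor ERCC3 was called by itself. The nuclease ERCC4 was 2.23% to 4.35% of its partner ERCC1 in p53 WT and 2.31% to 3.64% in p53 KO. These ratios are descriptions, with no test, and transcript ratios do not give protein ratios.

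**Figure D2:**
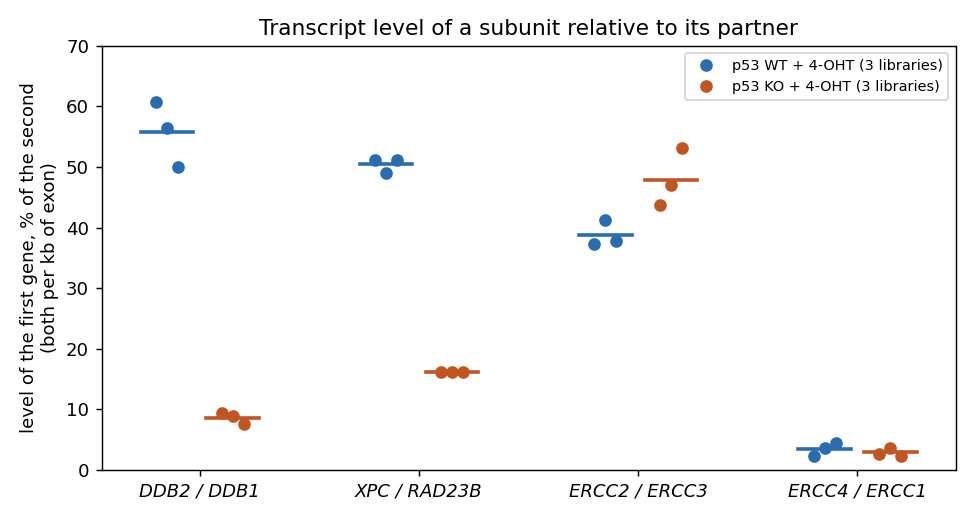
Transcript level of a subunit as a percentage of its partner, both per kilobase of exon, with points for the 3 libraries of each group and a bar for the mean. DDB2 per DDB1 and XPC per RAD23B are lower in all p53 KO libraries (at most 9.32% and 16.1%), ERCC2 per ERCC3 is higher, and ERCC4 per ERCC1 overlaps.

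Genes that lie beside each other on a chromosome can shift together between cell populations, so the members were also set against their neighbours. The median log2 fold change of the 50 nearest expressed protein-coding genes was 0.14 around both DDB2 and DDB1, 0.09 around XPC, -0.19 around RAD23B and -0.39 around XPA. It was 0.19 around ERCC2 and between -0.0207 and 0.0539 around ERCC3, ERCC4 and ERCC5. With this local median taken off, DDB2 had -2.64 (adjusted p = 2.61e-08 by edgeR) and XPC had -1.62 (adjusted p = 3.6e-07 by edgeR), so both were as low as before. RAD23B then passed as higher, at 0.32 (adjusted p = 0.0157 by edgeR), and XPA turned from -0.18 to 0.22 (adjusted p = 0.449 by edgeR). DDB1 had 0.06 and ERCC2 had 0.00085 under this setting. The local median came from these same libraries and was treated as fixed, so p-values under this setting leave out its error.

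**Figure D3:**
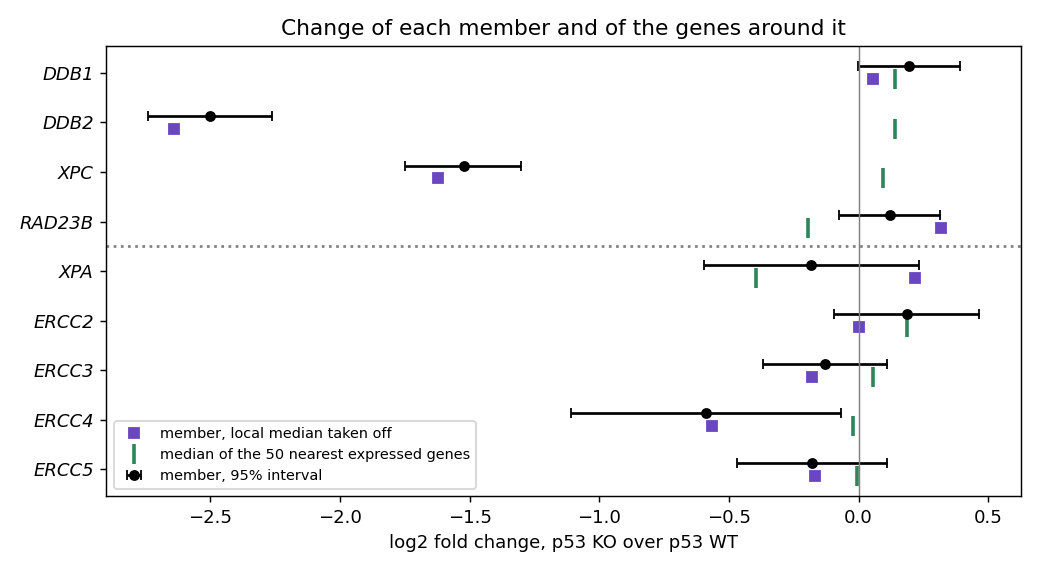
Log2 fold change (p53 KO over p53 WT) of each member with its 95% interval, the median of the 50 nearest expressed genes, and the member's value once that median is taken off. DDB2 and XPC stay at -2.64 and -1.62, while XPA crosses 0 and RAD23B moves up to 0.32.

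The immediate neighbours of DDB2 and XPC moved less than they did, or the other way. On either side of DDB2 lie PACSIN3, at 0.14 on the log2 scale (SE 0.116, adjusted p = 0.418 by edgeR), and ACP2, a lysosomal acid phosphatase, at -0.31 (SE 0.148, adjusted p = 0.152 by edgeR). ACP2 reached -0.45 (adjusted p = 0.0365 by edgeR) with the local median taken off. LSM3, an RNA-binding protein of the spliceosome, lies beyond the start of XPC and rose, from 72.9 ± 3.10 to 100 ± 13.1 CPM (SD, n = 3; log2 fold change 0.46, adjusted p = 0.00664 by edgeR). TMEM43, a nuclear envelope protein on the other side of XPC, fell by 0.32 on the log2 scale (adjusted p = 0.0446 by edgeR). That call was lost without p53 WT replicate 2, p53 WT replicate 3 or p53 KO replicate 1, at -0.34, -0.26 and -0.23. It was also lost with scaling by RLE, by upper quartile or by library size alone, and with the replicate number as a block. Beside ERCC2, the overlapping KLC3 rose from 5.81 ± 0.653 to 10.8 ± 3.78 CPM (SD, n = 3; log2 fold change 0.87, adjusted p = 0.018 by edgeR). The KLC3 call was lost without p53 WT replicate 2 or 3 or p53 KO replicate 3, at 0.86, 0.79 and 0.61. It was also lost by limma-voom, at 0.63 (adjusted p = 0.0585), and with the local median taken off, at 0.68 (adjusted p = 0.0605 by edgeR). No source used here says whether strand was used in the count. Reads of ERCC2 and KLC3 may therefore not be separable. The same holds for XPA and the overlapping NCBP1, which had 76.0 CPM in p53 WT and 63.2 CPM in p53 KO.

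**Figure D4:**
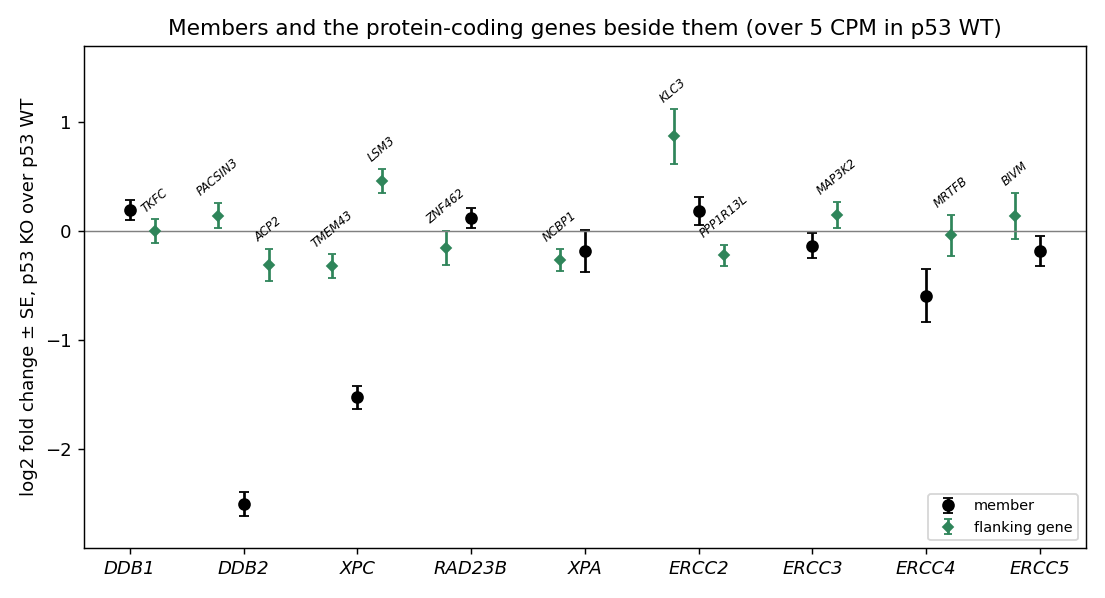
Log2 fold change ± SE of each member (black) and of the protein-coding genes beside it with over 5 CPM in p53 WT (green). Next to DDB2 at -2.50 and XPC at -1.52, the flanking genes lie between -0.32 and 0.46.

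The authors' deposited table, read as p53 WT over p53 KO because CDKN1A is positive there, gives log2 fold changes of 2.48 for DDB2 and 1.50 for XPC. In 0 of its 35987 rows does the test statistic of the authors' deposited table share the sign of the fold change. Adjusted p in the authors' deposited table was 7.25e-69 and 5.12e-26 for these, and 0.151 to 0.736 for the other members. The same table marks genes that intersect a p53 cistrome, a set of p53 binding sites. In the authors' deposited table DDB2 and XPC carry the mark, the other 7 members do not, and 0 of the 42 further pathway genes described below do. All 124 marked genes were called lower in p53 KO in the authors' deposited table. They are 0.345% of all its rows and 2.47% of its rows with an adjusted p under 0.05. The mark thus follows the same contrast and is no independent readout, and its absence from uncalled genes says nothing of binding.

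The rest of the pathway, a list of 42 other genes, moved less than DDB2 and XPC. At an adjusted p under 0.05, 6 were lower, 8 were higher and 28 did not pass, with a median log2 fold change of 0.10. This is 33.3% called, beside 26.5% of all tested genes. None of the 42 differed by more than 2-fold, and their range was -0.76 to 0.64, whereas 17.7% of all tested genes differed by more than 2-fold. The 42 had group means of at least 5.36 CPM, whereas all tested genes include rarer ones, so these shares are not matched for level. With the local median taken off, 3 of the 6 lower genes (CETN2, ERCC1 and POLD4) and 5 of the 8 higher genes (CDK7, LIG3, RFC2, RPA1 and XRCC1) kept their call. PCNA, RFC4 and RPA2 were called there in addition.

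Of 5 recognition partners, 1 fell and 0 rose. CETN2, the centrin that binds XPC, fell from 54.9 ± 3.98 to 42.8 ± 4.46 CPM (SD, n = 3; log2 fold change -0.36, adjusted p = 0.0316 by edgeR). Its call was lost without p53 WT replicate 1 or 2 or p53 KO replicate 1 or 2, at -0.34, -0.34, -0.31 and -0.33. CUL4A, a scaffold of the ligase that DDB1 and DDB2 join, had 209 ± 8.55 and 204 ± 13.6 CPM (SD, n = 3) and a log2 fold change of -0.03. Its sign turned under upper-quartile scaling.

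Of 8 further TFIIH subunits, 2 rose and 1 fell. CDK7, the kinase of TFIIH, had 42.4, 35.1 and 38.4 CPM in p53 WT and 61.3, 53.8 and 55.2 CPM in p53 KO, with no overlap. Its log2 fold change was 0.56 (SE 0.115, adjusted p = 0.00247 by edgeR). GTF2H4 rose by 0.48 (adjusted p = 0.00906 by edgeR) but had 0.27 (adjusted p = 0.101 by edgeR) with the local median taken off. MNAT1, which assembles the kinase module, fell by 0.33 on the log2 scale (adjusted p = 0.04 by edgeR). Its call was lost without any 1 of the 6 libraries, at -0.28 to -0.38, and its sign turned to 0.26 with the local median taken off. GTF2H1, the most abundant subunit that did not pass, had -0.15 (adjusted p = 0.376 by edgeR).

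RPA coats the exposed single strand, and ERCC1 is the partner of ERCC4. RPA1 rose from 111 ± 1.81 to 169 ± 5.08 CPM (SD, n = 3; log2 fold change 0.61, SE 0.0895, adjusted p = 0.000184 by edgeR). RPA3 rose by 0.36 (adjusted p = 0.0493 by edgeR), a call lost without p53 WT replicate 2 or 3 or p53 KO replicate 1 or 3, at 0.34, 0.25, 0.32 and 0.32. With the local median taken off RPA3 had 0.18 (adjusted p = 0.33 by edgeR). RPA2 had 0.05, and 0.41 (adjusted p = 0.0153 by edgeR) with the local median taken off. ERCC1 fell from 186 ± 7.46 to 144 ± 4.77 CPM (SD, n = 3; log2 fold change -0.36, adjusted p = 0.00776 by edgeR).

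Of 7 genes of the transcription-coupled branch, which starts from a stalled RNA polymerase, 1 fell and 0 rose. USP7, a deubiquitinase that also acts on MDM2 and p53, fell from 201 ± 13.2 to 160 ± 9.42 CPM (SD, n = 3; log2 fold change -0.33, adjusted p = 0.02 by edgeR). The USP7 call was lost without p53 WT replicate 2 or p53 KO replicate 2, at -0.27 and -0.30, and with the local median taken off, at -0.10. TCEA1, an elongation factor, had a log2 fold change of 0.06 (adjusted p = 0.762 by edgeR).

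Among 18 genes of gap filling and ligation, 4 rose and 2 fell. LIG3 and XRCC1, partners that seal the repaired strand, rose by 0.64 (SE 0.133, adjusted p = 0.00248 by edgeR) and 0.49 (SE 0.111, adjusted p = 0.00466 by edgeR). LIG3 had 0.40 with the local median taken off (adjusted p = 0.0386 by edgeR). POLE2, a subunit of polymerase epsilon, fell from 35.6 ± 1.00 to 21.1 ± 2.06 CPM (SD, n = 3; log2 fold change -0.76, adjusted p = 0.00045 by edgeR), but had -0.17 (adjusted p = 0.34 by edgeR) with the local median taken off. The other calls, named after their values were seen, were POLD4 (-0.73), RFC2 (0.34) and RFC3 (0.39). RFC2 lost its call without p53 WT replicate 2 or 3, at 0.34 and 0.31. RFC3 lost its call without p53 WT replicate 1, 2 or 3 or p53 KO replicate 1 or 2, at 0.30 to 0.45, and had 0.33 with the local median taken off (adjusted p = 0.0611 by edgeR). PCNA, the sliding clamp and a known p53 target, also named after its values were seen, had 227 ± 3.40 and 267 ± 15.8 CPM (SD, n = 3; log2 fold change 0.23, adjusted p = 0.0703 by edgeR). The PCNA groups did not overlap. PCNA passed as higher by DESeq2 (adjusted p = 0.0445), by limma-voom (adjusted p = 0.0477) and with the local median taken off (adjusted p = 0.0187 by edgeR). It also passed with scaling by upper quartile or by library size alone, and with the filter of 1 CPM in 3 libraries. POLD2, the most abundant gene that did not pass, had -0.20 (adjusted p = 0.147 by edgeR).

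**Figure D5:**
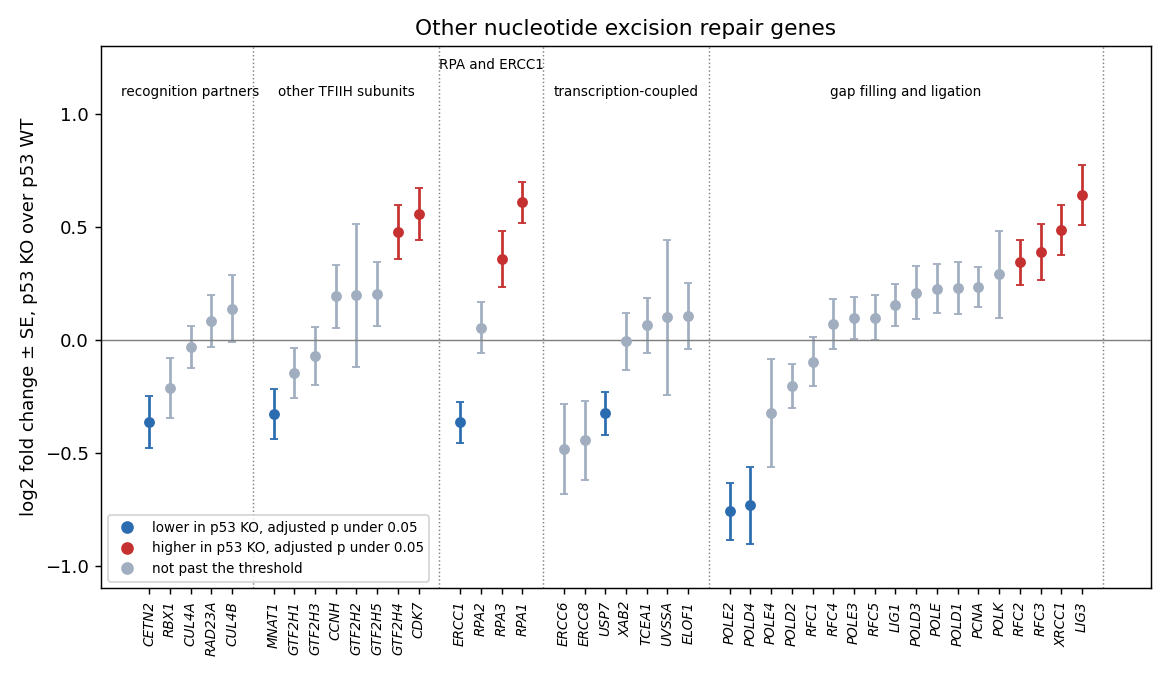
Log2 fold change ± SE (p53 KO over p53 WT) of the 42 other pathway genes by role, coloured where the adjusted p was under 0.05. All lie between -0.76 and 0.64, well short of DDB2 and XPC.

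The genes whose log2 CPM followed DDB2 most closely over the 6 libraries were MROH6 (Pearson's r = 0.9995), SMURF2 (r = 0.9991) and PPP2R5C (r = 0.999). Those closest to XPC were C17orf80 (r = 0.9997), FCF1 (r = 0.9995) and TNFRSF10B, a death receptor (r = 0.9991). Their log2 fold changes were -1.57, -1.16 and -0.91, and -0.79, -1.31 and -1.07. With the local median taken off PPP2R5C had 0.0459, C17orf80 -0.52 and FCF1 -0.44, while MROH6 had -1.44, SMURF2 -0.86 and TNFRSF10B -1.13. All but PPP2R5C kept their call. The correlations are a description of libraries that fall into 2 groups: 1119 and 1083 of 12694 genes with at least 5 CPM had r over 0.95 with DDB2 and with XPC.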

How the data were processed

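Raw counts by gene symbol were deposited by the authors, and every library's column was used. The tools named are HISAT2 2.1.0, fastp 0.21.0 and DESeq2 1.3.6, with build GRCh37 (hg19), per the submitters' processing notes. Counting tool, annotation and strand setting: not given in the sources used here. Per gene, the comparison the authors deposited gives p-values, a log2 fold change, a standard error and a test score. It also gives, as the authors' mean over normalised libraries, a signal per gene, per the file headers, and a mark for a p53 cistrome. Groups and replicate numbers came from the sample titles.

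The test was edgeR's (4.0.16, R 4.3.3) on the counts (quasi-likelihood F-test, robust, TMM factors 0.979 to 1.02, filterByExpr, 22352 genes tested) with Benjamini-Hochberg adjustment over all tested genes. The SE is the size of the fold change over the square root of F, and intervals are 95%. The test was checked on simulated counts. These were drawn with the fitted spread and as independent libraries, so they cannot show how p-values behave where libraries are technical. A count of 0 allows 0.0376 to 0.147 CPM (3 counts), which covers counting error only. Replicates of a group differed beyond sampling noise (chi-square per degree of freedom at least 16.7). Neighbours and start sites are RefSeq's on GRCh38.p14, another build than the authors', and the local median drew on genes that averaged 2 CPM or more.

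Named genes are the 9 members, CDKN1A, up to 3 called genes and the most abundant uncalled gene of each further list, flanking genes of the members, and the 3 genes most like DDB2 and XPC. Some genes that the rule or the marker lists name are not reported here. MDM2, also named by the rule, had a log2 fold change of -1.93. Flanking genes not described in the report appear by name where they have over 5 CPM. The 4 endothelial markers summed to at most 3.29 CPM over the 3 found in the table. Members and lists were chosen with earlier results of these data known.

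The settings tried besides were DESeq2 1.42.0, limma-voom (limma 3.58.1), scaling by RLE, by upper quartile or by library size alone, no filter or 1 CPM in 3 libraries, and a threshold of 0.01. Further ones were a block for the replicate number, each library left out, the local median, and ERCC5 summed with BIVM-ERCC5.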

Additional observations from a re-analysis of the deposited data

How the results depend on the processing

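DDB2 and XPC stayed lower and past the threshold under all 16 alternatives, between -2.64 and -2.45 and between -1.62 and -1.49 on the log2 scale. ERCC4 was called under 3 alternatives, also with no filter (-0.60), and RAD23B under 1. The number of members called lower was 2, or 3 with no filter. The number called higher was 0, or 1 once the local median was taken off. Without 1 library the counts were 2 to 3 lower and 0 higher. Of the other pathway genes, 6 lower and 8 higher became 3 and 5 at an adjusted p under 0.01, 3 lower with the local median, and 3 to 7 lower and 5 to 10 higher without 1 library. Over all genes 5924 calls became 3758 at an adjusted p under 0.01, 3452 of 12078 genes with the local median, and 4160 to 6059 without 1 library.

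The replicate number as a block gave 3 lower and 6 higher other pathway genes, 2 lower members and 5159 calls. CETN2, MNAT1, USP7, RPA3 and RFC2 lost their calls there. CETN2 and MNAT1 also lost theirs with upper-quartile scaling, and MNAT1 with scaling by library size alone. Same-numbered libraries did not deviate together (r = 0.0171, 0.0343 and -0.0291), and not every library correlated best with its own number, so the numbers were not taken to pair them.

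Signs turned in several settings, and the cause was not tested. With the local median taken off, values were 0.216 for XPA, 0.0362 for CUL4A, 0.258 for MNAT1, -0.148 for TKFC (listed as DAK), 0.0486 for ZNF462, 0.104 for NCBP1 and 0.0459 for PPP2R5C. MNAT1 and PPP2R5C had been called lower, at -0.33 and -0.91. CUL4A had 0.00237 with upper-quartile factors, DAK had -0.0147 with no filter and -0.021 by limma-voom, and MRTFB (listed as MKL2) had 0.03 by limma-voom. Without 1 library in turn, the ranges were -0.0924 to 0.0117 for CUL4A, -0.00127 to 0.188 for TCEA1, -0.0401 to 0.0439 for DAK and -0.27 to 0.126 for MKL2.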
